A study of Mus musculus with 12 samples.

Results

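The endothelin system of the mouse retina was taken as 7 genes of the 25124 listed in both FPKM tables. These were the ligand genes Edn1, Edn2 and Edn3, the receptor genes Ednra and Ednrb, and the genes of the converting enzymes, Ece1 and Ece2. The genes were found by symbol, and all 7 were present in both tables. The set was selected on measured values, since it was proposed with the differences between IOP and control retinas and between 18 and 3 months already known. Values in those comparisons, and in the interaction of IOP with age that is built from them, are therefore given as a description and without p-values.

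Endothelins are short peptides cut from larger precursors, first by furin-type proprotein convertases and then by the endothelin converting enzymes. They act on a pair of G protein-coupled receptors, of which the ETA receptor (Ednra) is best known for constricting vessels and the ETB receptor (Ednrb) for clearing the peptide and for its presence on endothelium and glia. In the retina Edn2 is known as a gene that injured photoreceptors switch on, and ETB receptors are known on Muller glia and astrocytes.

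The data were poly(A) RNA-seq of whole retinas of wild-type C57BL/6J mice, in 12 libraries that formed 6 groups of 2. One eye of each mouse was held at an intraocular pressure (IOP) of 30 mmHg for 1 h, and the contralateral untreated eye served as the control, so that every control retina came from a mouse with a treated fellow eye. The 3mo and 18mo groups (3 and 18 months old) received 1 elevation and were collected on day 2. The 4xIOP groups were 3 months old at the first of 4 biweekly elevations and were collected on day 2 after the fourth. No mouse carried a transgene. Per the study's methods, the procedure used ketamine and xylazine anesthesia, reversed with atipamezole, and drops of proparacaine, tropicamide and phenylephrine on the eyes. Balanced salt solution was infused through a needle in the anterior chamber, and the antibiotic ofloxacin was given to the treated eye alone, so that pressure, needle and antibiotic cannot be told apart. The 8 libraries with a single elevation and the 4 of the repeated series stand in tables scaled separately, so comparisons were made within a table. The labels do not say which retinas came from the same mouse, and p-values measure the spread between these libraries only.

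The libraries held 39766199 to 59455152 mapped reads, of which 44.2 to 71.5% lay in exons. Among the cell type marker lists, rod photoreceptors had the highest summed level in every library, at 5856 to 28050 FPKM over 10 rod markers. The median FPKM of transcripts under 1000 bases, divided by that of transcripts of 4000 bases or more, was 3.26 and 8.14 for 3mo controls, 6.15 and 5.31 after IOP at 3 months, and 1.75 to 2.05 in the 18mo libraries. The 3mo controls lay further apart by this measure than the libraries of any other group. Counts and values are also given with single libraries left out where this moved them by more than 1.5 times. In bulk retina, fewer cells of a type and less RNA per cell cannot be told apart.

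The 3 ligands were distinguishable in these libraries because they are separate genes on separate chromosomes (mm10). Edn1 lies on the plus strand of chromosome 13 (chr13:42301476-42307990), Edn2 on the plus strand of chromosome 4 (chr4:120161206-120167360) and Edn3 on the plus strand of chromosome 2 (chr2:174760619-174784042). The stretch that encodes the mature peptide of 21 residues is shown for each, because it is where the family is most alike. It lies within exon 2 in each gene. The sequences were read 5′ to 3′ from the mm10 genome, by the GENCODE annotation, at chr13:42303649-42303711, chr4:120161951-120162013 and chr2:174761749-174761811, and capitals mark the bases that are not the same in all 3 genes.
Edn1: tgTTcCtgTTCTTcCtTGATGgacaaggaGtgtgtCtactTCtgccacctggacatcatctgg
Edn2: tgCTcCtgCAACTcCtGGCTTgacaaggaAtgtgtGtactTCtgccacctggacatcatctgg
Edn3: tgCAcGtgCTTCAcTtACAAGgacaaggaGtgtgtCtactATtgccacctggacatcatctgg
Of the 63 bases, 45 were shared by all 3 genes. Edn1 and Edn2 shared 53 of 63 bases and 18 of 21 encoded residues. Edn3 was further away, with 15 of 21 residues shared with either of the others. The 3 precursors had 202, 175 and 214 residues.

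Edn2 was the member with the widest range of levels. In the single-elevation table it was at 0.877 and 1.18 FPKM in 3mo controls, against 24.2 and 19.0 FPKM in 3mo IOP retinas. At 18 months the controls had 10.1 and 11.7 FPKM and the IOP libraries 59.8 and 163 FPKM. These 4 groups did not overlap, and their order was 3mo control, 18mo control, 3mo IOP and 18mo IOP, with every library of a group above every library of the group before it. The gap between the 18mo IOP libraries was wider than in any other group of that table.

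In the repeated series Edn2 was low in both control libraries and close to undetected in 1 of them. Control replicate 1 had 2 reads (0.035 FPKM), which is under the 3 reads taken as the limit of detection, and control replicate 2 had 45 reads (0.731 FPKM). After 4 elevations the libraries had 2750 and 2175 reads, or 33.7 and 35.4 FPKM. The 4xIOP libraries were thus nearly equal to each other, while the controls differed from each other by more than 10 times.

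On the log2(FPKM + 0.5) scale, the Edn2 difference was 3.85 (SE 0.405) between 3mo IOP and 3mo control, 3.13 (SE 0.405) between 18mo IOP and 18mo control and 5.43 (SE 0.307) between 4xIOP and 4xIOP control. Between 18mo control and 3mo control it was 2.90 (SE 0.405). As ratios of group means, these were 21.0-fold, 10.2-fold, 90.1-fold and 10.6-fold. The 90.1-fold divides by a control mean of 0.383 FPKM, from libraries at 0.035 FPKM, under the limit of detection, and 0.731 FPKM. Its size is therefore uncertain. The 10.6-fold was a difference between untreated eyes, and the 18mo control retinas stood at 10.9 FPKM on average, against 21.6 FPKM at 3 months after IOP. Leaving out 1 library moved 2 of these differences by more than 1.5 times as folds. The 18mo IOP difference was 2.41 without IOP replicate 2 and 3.85 without IOP replicate 1, and the 4xIOP difference was 4.83 without control replicate 1 and 6.03 without control replicate 2. The 4xIOP difference also depended on the offset added before the logarithm, and was 6.69 with an offset of 0.1 and 4.73 with an offset of 1, while voom on the recovered reads gave 7.56 (SE 0.654).

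**Figure D1:**
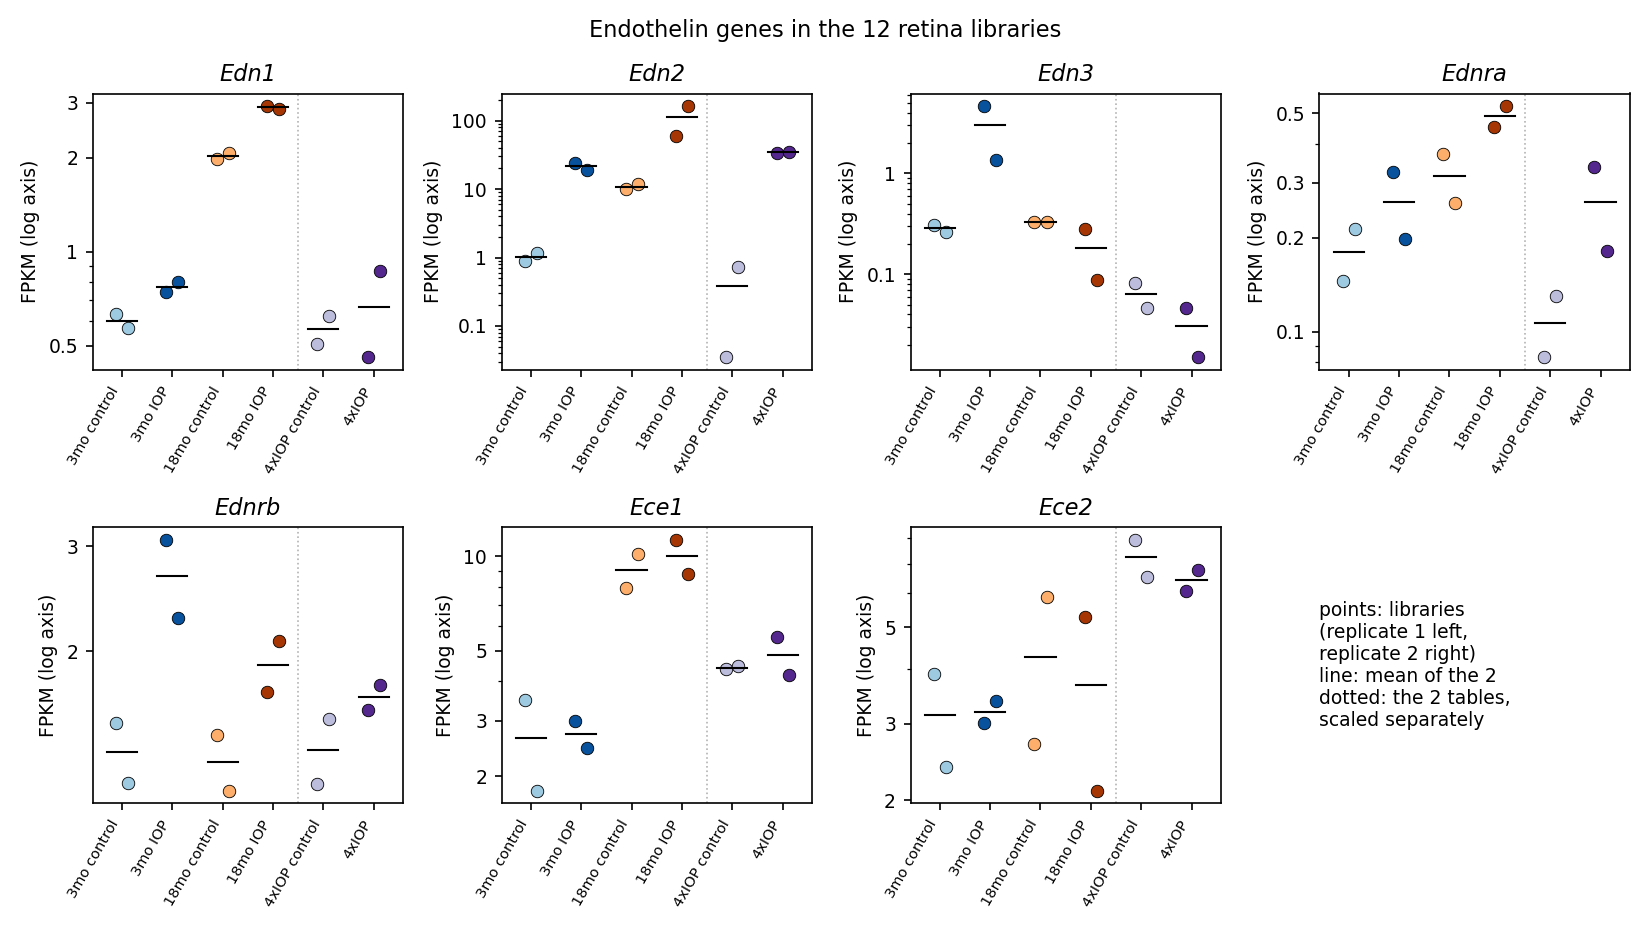
Level of each endothelin gene (FPKM, log axis) in the 12 retina libraries by group, with a point for each library and a line at the mean of the 2. Edn2 separates every IOP group from its control, Edn1 and Ece1 stand higher in all 18mo than in all 3mo libraries, and Edn3 is highest in the 3mo IOP group.

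The share of Edn2 in the summed FPKM of the 3 ligands was higher in every single-elevation IOP library than in the 3mo controls, while the shares of the 18mo control and 3mo IOP libraries overlapped. For 3mo controls it was 48.2 and 58.6%, with 81.7 to 89.8% at 3 months after IOP, 81.4 to 83.0% in the 18mo controls and 94.9 to 98.2% in the 18mo IOP libraries. For the repeated series it was 5.62 and 52.3% in the controls and 97.6 to 98.5% in the 4xIOP libraries. Endothelin ligand mRNA in IOP retinas was therefore mostly Edn2 mRNA in each of these 6 libraries.

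Edn2 is shown with the 250 bases before its annotated start, because it was the member with the largest differences. The window (chr4:120160956-120161205, GRCm38.p6, plus strand, from RefSeq) held 5 CpG dinucleotides, which are in capitals, and 55.6% G and C.
Edn2 upstream: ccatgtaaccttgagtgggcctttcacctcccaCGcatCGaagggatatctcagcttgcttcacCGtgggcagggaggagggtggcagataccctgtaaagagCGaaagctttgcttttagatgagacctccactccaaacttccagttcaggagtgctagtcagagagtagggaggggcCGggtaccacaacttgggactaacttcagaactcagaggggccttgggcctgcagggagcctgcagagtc
It was searched on both strands for an AP-1 site (TGANTCA), a STAT site (TTCNNNGAA) and a hypoxia response core (ACGTG). A site of GATA factors (AGATAA), a CRX and OTX2 site (TAATCC) and a TATA box (TATAAA) were searched in the same way. None of these letters was found in the Edn2 window. Among 32851 RefSeq promoter windows, which also reach 50 bases past the start, these motifs occurred in 7.8, 8.3, 19.6, 11.2, 7.1 and 13.6%. Among the windows of the other members, a match to AGATAA was found for Edn1, a CRX and OTX2 site for Ednrb, and the hypoxia response core for Edn1, Ece1 and Ece2. Both Edn1 matches lay after the annotated start, at bases 9 to 14 and 22 to 26. Those of Ece1 lay only in the window chr4:137913308-137913607, and its other windows had no match. A match is a match of letters and does not show that a factor binds there.

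Edn1, which encodes the endothelin best known from vascular endothelium, was a gene of low level that stood higher at 18 months. It was at 0.633 and 0.570 FPKM in the 3mo controls and at 1.98 and 2.07 FPKM in the 18mo controls, a log2 difference of 1.20 (SE 0.184). After IOP it was at 0.743 and 0.799 FPKM at 3 months and at 2.93 and 2.87 FPKM at 18 months. Each IOP pair lay above its own controls by a small amount, with log2 differences of 0.21 (SE 0.184) and 0.43 (SE 0.184), and the first of these was below 0 when values were quantile normalised or corrected for transcript length. The groups of the repeated series overlapped, at 0.507 and 0.621 FPKM in controls and 0.459 and 0.866 FPKM after 4 elevations.

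Edn3, which encodes the endothelin known for the development of melanocytes and enteric neurons, had a different pattern from the other ligands. It was at 0.310 and 0.263 FPKM in the 3mo controls and at 4.67 and 1.36 FPKM in the 3mo IOP libraries. At 18 months it was at 0.330 FPKM in both controls and at 0.281 and 0.087 FPKM after IOP. It was thus higher after IOP in both libraries at 3 months, with a log2 difference of 1.98 (SE 0.432). At 18 months both IOP libraries lay below both controls, but the log2 difference of -0.29 was smaller than its SE of 0.432. The offset of 0.5 shrinks differences of so low a gene, and voom on the recovered reads gave 3.19 (SE 0.786) at 3 months and -1.09 (SE 1.01) at 18 months. Edn3 passed the filter on low values only through the 3mo IOP libraries. Without replicate 1 of the 3mo IOP group the difference at 3 months was 1.24, and without replicate 2 it was 2.72.

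Edn3 in the repeated series was near its detection limit, with 10 and 6 reads in controls and 8 and 2 reads after 4 elevations, and it was not tested there.

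The 3mo IOP libraries also differed from their controls in genes of cells outside the neural retina, and in the same order as Edn3. Mlana, a melanosome gene, was at 11.4 and 4.57 FPKM in the 3mo controls and at 124 and 69.0 FPKM after IOP. It rose by a log2 difference of 3.59 (SE 0.53, limma adjusted p = 0.0325). The smooth muscle genes Acta2 and Tagln rose by 3.54 (SE 0.396, limma adjusted p = 0.0221) and 3.21 (SE 0.386, limma adjusted p = 0.0293). Acta2 was at 46.0 FPKM in replicate 1 and 16.8 FPKM in replicate 2, so that replicate 1 was higher for Edn3, Mlana and Acta2 alike.

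Over the whole list of 13 pigment epithelium and melanocyte markers, 1 of 11 tested was called after IOP at 3 months, and 0 when any 1 of the 4 libraries was left out. Their summed level was 235 and 222 FPKM in the 3mo controls, 726 and 316 FPKM in the 3mo IOP libraries, and 3.48 to 13.9 FPKM in the 18mo libraries. With age, 10 of the 11 were called lower, and 6 without 18mo control replicate 2. Of the 8 mural cell markers tested, 2 were called after IOP at 3 months, and 0 when replicate 1 of either group was left out. None of the 13 pigment markers was at 0 in every library. The part of these cells in the Edn3 difference was not tested.

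**Figure D2:**
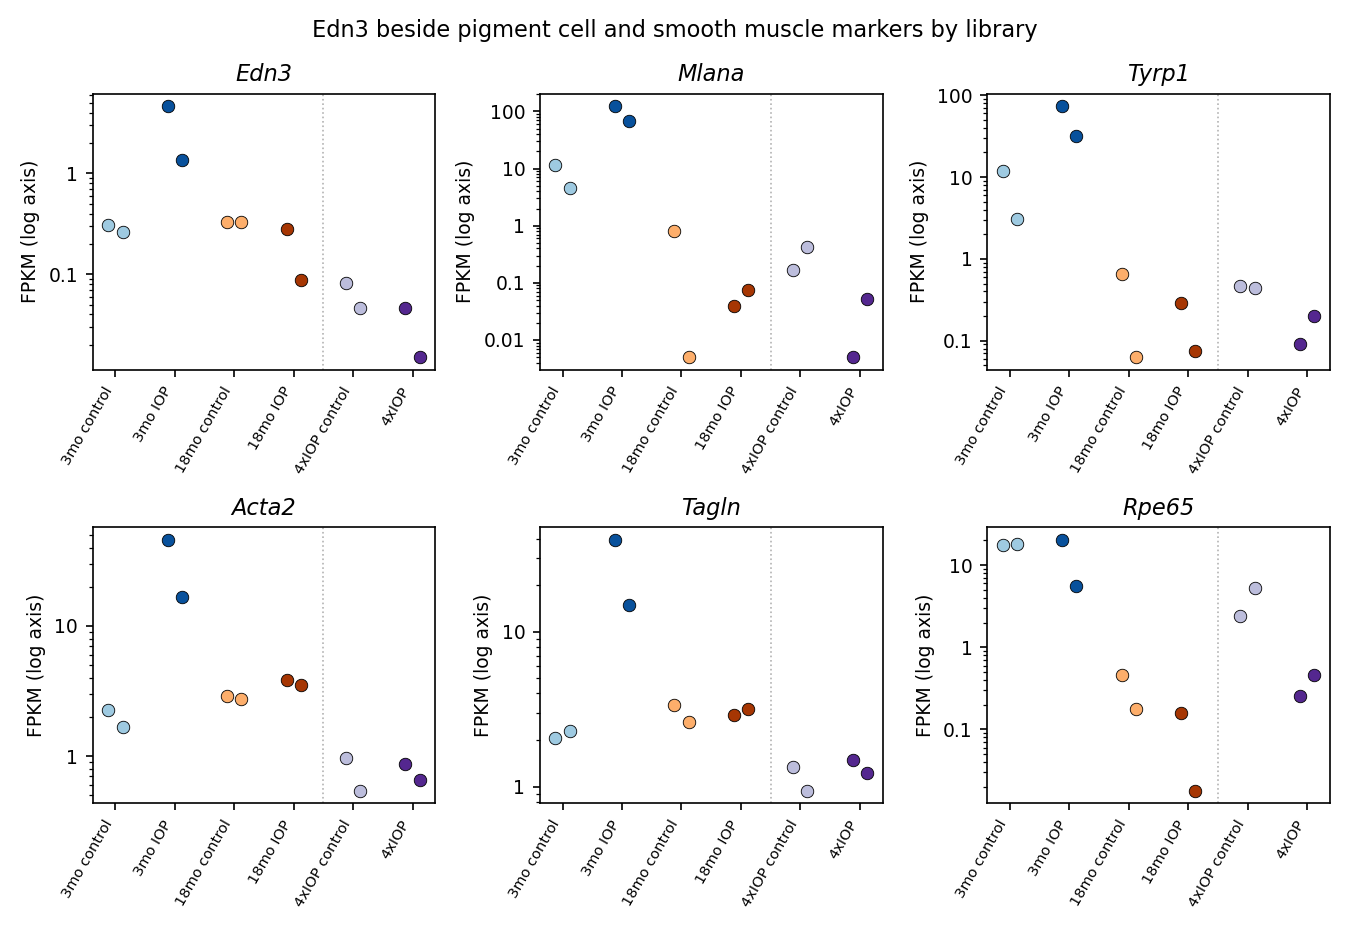
Levels (FPKM, log axis) of Edn3, of the pigment cell genes Mlana, Tyrp1 and Rpe65 and of the smooth muscle genes Acta2 and Tagln, with a point for each library and values of 0 drawn at 0.005. Edn3, Mlana, Tyrp1, Acta2 and Tagln all stand highest in the 3mo IOP libraries, with replicate 1 above replicate 2, while Rpe65 does not separate the 3mo groups.

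Ednrb was the receptor gene with the higher level. It is on the minus strand of chromosome 14 (chr14:103814615-103843701) and was at 1.51 and 1.20 FPKM in the 3mo controls and at 3.08 and 2.28 FPKM in the 3mo IOP libraries. At 18 months it was at 1.44 and 1.17 FPKM in controls and at 1.71 and 2.08 FPKM after IOP. In the repeated series, where another transcript stood for the gene, it was at 1.20 and 1.54 FPKM in controls and at 1.59 and 1.75 FPKM after 4 elevations.

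The mean level of Ednrb was therefore higher after IOP in all 3 comparisons, but by less than the log2 difference of 1 used for a call. The log2 differences were 0.77 (SE 0.221), 0.41 (SE 0.221) and 0.22 (SE 0.214), and the last was -0.03 after quantile normalisation. The age groups overlapped, with a log2 difference of -0.04 (SE 0.221) between the control groups. Of the 12 Muller glia markers, 0 were called after a single elevation at either age (1 at 3 months without control replicate 2), and 1 was called after 4 elevations. Their summed level was 2207 and 1771 FPKM in the 18mo controls and 3308 and 3130 FPKM in the 18mo IOP libraries, while it overlapped between the groups at 3 months and in the repeated series. A large part of the 18mo difference was Apoe, at 671 and 560 FPKM in the 18mo controls and 1460 and 1513 FPKM in the 18mo IOP libraries. The summed level of 6 astrocyte markers, Gfap among them, was higher in every IOP group. It was 15.9 and 16.8 FPKM in the 3mo controls against 61.4 and 56.4 FPKM after IOP, and 12.9 and 12.5 FPKM in the 18mo controls against 46.1 and 106 FPKM after IOP. In the repeated series it was 10.0 and 9.37 FPKM in controls against 58.2 and 50.2 FPKM after 4 elevations. Much of this rise was Gfap, which averaged 2.11 FPKM in the 3mo controls and 28.1 FPKM after IOP. At 18 months Gfap averaged 4.63 FPKM in controls and 59.4 FPKM after IOP, and in the repeated series 2.41 and 39.4 FPKM. Of 5 astrocyte markers tested, 1, 1 and 2 were called higher, with Gfap called in each comparison. The count was 0 at 3 months without control replicate 1 or either IOP library, and 0 at 18 months without either control library. The part of glial RNA in the Ednrb differences was not tested.

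Ednra, on the minus strand of chromosome 8 (chr8:77663029-77724452), had 12 to 114 reads a library and stayed under the filter in both tables. It was at 0.146 and 0.213 FPKM in the 3mo controls, 0.324 and 0.198 FPKM in the 3mo IOP libraries, 0.370 and 0.259 FPKM in the 18mo controls and 0.451 and 0.528 FPKM in the 18mo IOP libraries. Its repeated series levels were 0.083 and 0.130 FPKM in controls and 0.338 and 0.182 FPKM after 4 elevations. As a description only, with 2 libraries a group, the groups overlapped at 3 months and did not overlap in the other 2 IOP comparisons. Ednrb made up 79.1 to 93.5% of the summed FPKM of the receptors over the 12 libraries, so that receptor mRNA was mostly of the ETB kind in every group.

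Ece1, the gene of the main converting enzyme, was higher in every 18mo than in every 3mo library. It is on the plus strand of chromosome 4 (chr4:137913558-137965228), the chromosome that also carries Edn2. It was at 3.49 and 1.80 FPKM in the 3mo controls, 2.99 and 2.45 FPKM in the 3mo IOP libraries, 7.93 and 10.2 FPKM in the 18mo controls and 11.3 and 8.75 FPKM in the 18mo IOP libraries. The log2 difference between the control groups was 1.65 (SE 0.284), and it was 1.25 without replicate 2 of the 3mo control group and 1.27 after correction for transcript length.

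The Ece1 levels of IOP and control retinas overlapped at both ages and in the repeated series. There they were 4.38 and 4.47 FPKM in controls and 5.52 and 4.20 FPKM after 4 elevations. The log2 differences after IOP were 0.08, 0.14 and 0.11, each smaller than its SE of 0.284, 0.284 and 0.204.

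Ece2, a related enzyme of neural tissue, overlapped between groups in every comparison. It is on the plus strand of chromosome 16 (chr16:20629851-20645915) and was between 2.10 and 7.96 FPKM over the 12 libraries. Its reads cannot be fully told apart from those of the readthrough gene Eef1akmt4-ece2, which overlaps it on the same strand, so its values are uncertain. The share of Ece1 in the summed FPKM of both enzymes was 41.9 to 49.8% in the 3mo libraries and 63.5 to 80.6% in the 18mo libraries.

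**Figure D3:**
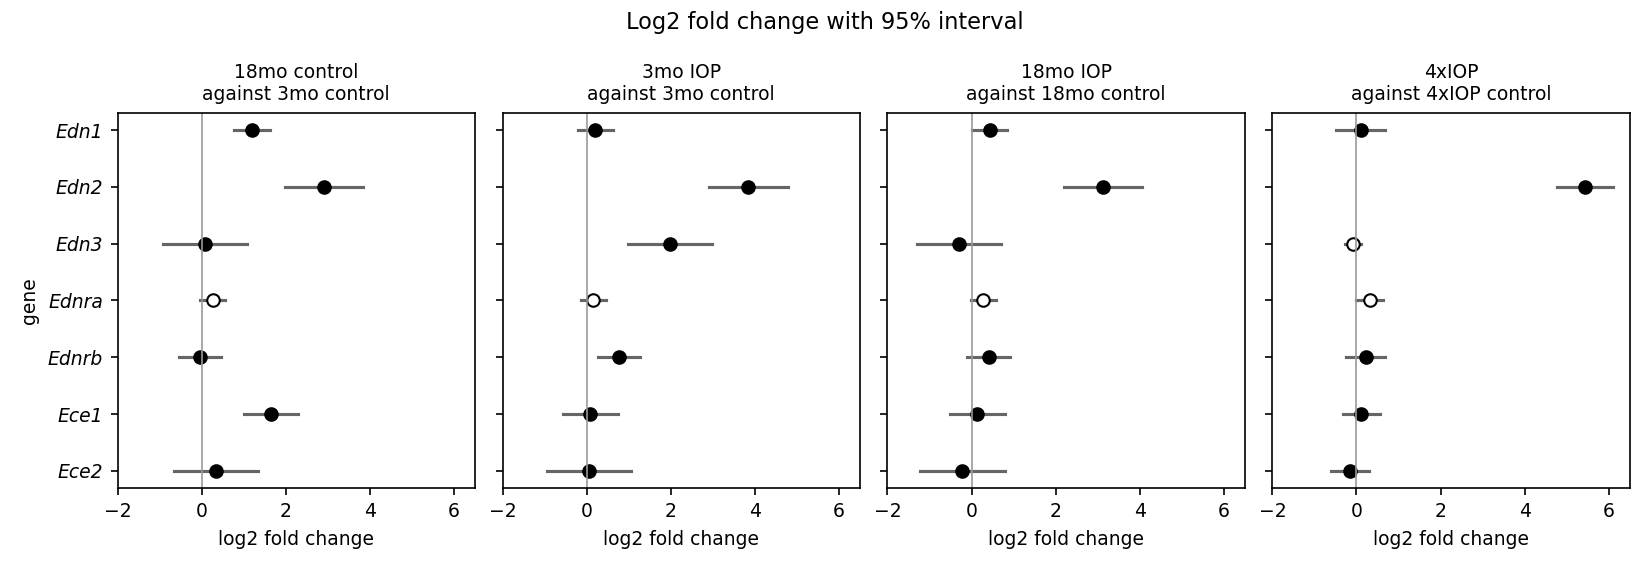
Log2 difference of each endothelin gene on the log2(FPKM + 0.5) scale (horizontal axis) with its 95% interval from limma, in 4 comparisons, with open points for genes under the filter on low values. Edn2 lies above 2 in all 4 panels, and Edn1 and Ece1 are above 1 only between the control groups of 18 and 3 months.

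A gene was called changed where its limma p-value, adjusted over all genes tested by the Benjamini-Hochberg method, was at most 0.05 and its log2 difference was at least 1 in size. Between 18mo and 3mo controls 3 of the 6 members tested were called higher (Edn1, Edn2 and Ece1) and 0 lower, where 11.6% of all 13731 genes tested were called higher and 11.6% lower. These shares stand for 1595 and 1590 genes, and leaving out 1 library gave 738 and 779 (3mo control replicate 2), 2624 and 2093 (3mo control replicate 1), 932 and 789 (18mo control replicate 1) or 610 and 566 (18mo control replicate 2). With median-of-ratios size factors the counts were 1056 and 1959. After IOP at 3 months 1 of 6 was called higher and 0 lower, beside 0.568% higher and 0.00728% lower over the whole table. The 78 genes behind the first share became 253 without control replicate 2, 0 without control replicate 1 or IOP replicate 1, 7 without IOP replicate 2 and 10 with median-of-ratios size factors. After IOP at 18 months 1 of 6 was called higher and 0 lower, beside 0.117% and 0.00728% of all genes. The 16 genes higher became 140 without IOP replicate 1, 6 without IOP replicate 2 and 0 without either control library or with median-of-ratios size factors. After 4 elevations 1 of 5 was called higher and 0 lower, beside 5.45% and 0.693% of 13718 genes. The single member called in each IOP comparison was Edn2. These counts describe the choice of the genes and nothing further was read from them.

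The median log2 difference of the 5 members other than Edn3 and Ednra was 1.20 with age, 0.21 and 0.41 after IOP at 3 and 18 months and 0.11 after 4 elevations. With Edn3, which passed the filter only through the 3mo IOP libraries, the first 3 of these were 0.77, 0.49 and 0.27. The median over all genes was 0.16, 0.13, 0.09 and 0.10, and it moved to 0.01, -0.04, -0.02 and -0.01 when libraries were rescaled by median-of-ratios size factors. The differences of Ece1 and Ece2 after IOP at 3 months, 0.08 and 0.05, were no larger than the shift of all genes. The Edn2 call at 3 months was lost without replicate 1 of the controls (log2 difference 3.71) or without either IOP library (3.68 and 4.02). The Edn2 call at 18 months was lost without either control library (3.03 and 3.23) and under 8 other settings, among them a voom fit of the recovered reads.

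A limma interaction term over the 8 single-elevation libraries compared the response at 18 months with that at 3 months. At an adjusted p of at most 0.05, 0% of 13731 genes were called by limma and 0 by voom on the recovered reads, while 218 genes had an unadjusted p under 0.05. With no filter on low values, 2 genes were called, and 2 without 3mo IOP replicate 2. As a description, the difference between the 18mo and the 3mo response of Edn2 was -0.72 (SE 0.572), and it was -0.0013 without 18mo IOP replicate 1 and -1.44 without 18mo IOP replicate 2. For Edn3 it was -2.27 (SE 0.611), a value that rests on the 3mo IOP libraries through which the gene passed the filter.

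**Figure D4:**
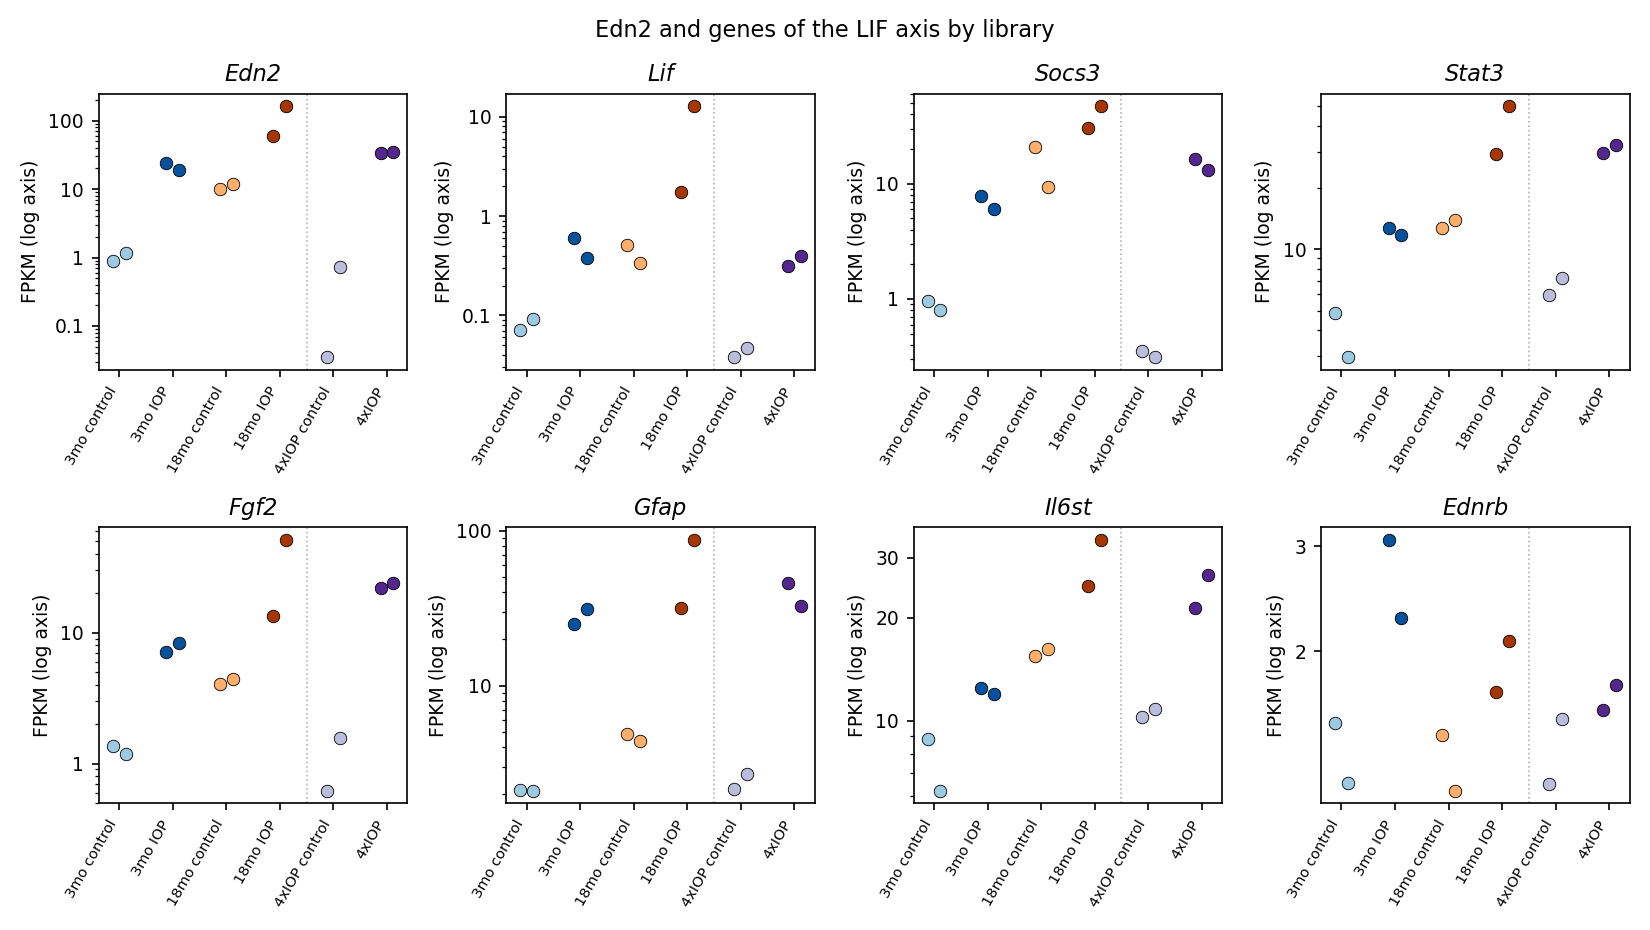
Levels (FPKM, log axis) of Edn2, Ednrb and 6 genes of the LIF axis, with a point for each library. Edn2, Socs3, Stat3, Fgf2, Gfap and Il6st are higher in both libraries of every IOP group than in both of its controls, and replicate 2 of the 18mo IOP group is the highest library for each of them.

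The photoreceptor injury pathway in which Edn2 is known to act runs from LIF, a cytokine of Muller glia, through gp130 (Il6st) and STAT3 to Edn2 and Fgf2. Of 12 genes of this axis, 4 were called higher with age (Socs3, Stat3, Il6st and Fgf2), beside 11.6% of all genes, and 2 without 3mo control replicate 2 or without either 18mo control library. Socs3, a feedback inhibitor of STAT3 signalling, rose by 3.39 (SE 0.359, limma adjusted p = 0.00312) and Stat3 by 1.68 (SE 0.29, limma adjusted p = 0.00623). The median of the list was 0.64, against 0.16 for all genes. In the same comparison 6 of 12 Muller glia markers were called higher (3 without 18mo control replicate 1), and their summed level was 808 and 1182 FPKM in 3mo controls and 2207 and 1771 FPKM in 18mo controls. Of 11 microglia and leukocyte markers tested, 7 were called higher (4 and 1 without 18mo control replicate 1 and 2), with a summed level of 21.3 and 33.2 FPKM at 3 months and 80.4 and 93.4 FPKM at 18 months. The part of these cells in the axis was not tested.

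After IOP at 3 months 2 of the 12 were called higher and none lower, beside 0.568% of all genes higher, and the count was 0 when control replicate 1 or either IOP library was left out. Gfap, an intermediate filament of reactive glia, rose by 3.44 (SE 0.401, limma adjusted p = 0.0271) and Socs3 by 2.42 (SE 0.359, limma adjusted p = 0.0325). At 18 months 1 of 12 was called, Gfap, at 3.37 (SE 0.401, limma adjusted p = 0.0443), and the count was 0 without either control library and 5 without IOP replicate 1. The list medians were 0.72 and 1.30. Lif itself did not pass the test at either age. Its levels were 0.071 and 0.092 FPKM in the 3mo controls, 0.607 and 0.375 FPKM in the 3mo IOP libraries, 0.513 and 0.334 FPKM in the 18mo controls and 1.77 and 12.8 FPKM in the 18mo IOP libraries. In Lif, as in Edn2, replicate 2 of the 18mo IOP group was the highest library. Besides the astrocyte markers given with Ednrb, the summed level of the microglia and leukocyte markers was 95.8 and 77.1 FPKM after IOP at 3 months and 252 and 126 FPKM after IOP at 18 months, above the controls of the same age in both cases, with 0 of 11 called at either age. At 3 months 2 were called higher without control replicate 2 and 1 without IOP replicate 2. The summed rod level at 18 months was 20443 and 18187 FPKM in controls and 13821 and 16295 FPKM after IOP, with 0 of 10 called. The part of these cells in the single-elevation differences of the axis was not tested.

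After 4 elevations 6 of 11 genes of the axis were called higher, beside 5.45% of all genes, with a list median of 1.15. Socs3 was at 0.351 and 0.313 FPKM in controls and at 16.2 and 13.2 FPKM after 4 elevations. Fgf2, a growth factor known to be induced in stressed photoreceptors, was at 0.620 and 1.58 FPKM in controls and at 21.9 and 24.1 FPKM after 4 elevations. The log2 differences were 4.19 (SE 0.198) and 3.94 (SE 0.265). In the same comparison 12 of 13 microglia and leukocyte markers and 9 of 9 lens markers tested were called higher, and the summed lens level was 5.26 and 0.68 FPKM in controls against 59.4 and 106 FPKM after 4 elevations. The rod markers had a median log2 difference of -0.89, against 0.10 for all genes, and their summed level was 12244 and 12894 FPKM in controls and 5856 and 8847 FPKM after 4 elevations. None of the 10 rod markers was called (1 lower without 4xIOP replicate 2), and Nrl, a rod transcription factor, was at -1.35 (SE 0.39, limma adjusted p = 0.0541). Of 10 cone markers 3 were called lower and 1 higher, with 1 or 2 lower and 0 or 1 higher when any 1 library was left out, and 5 of 6 pigment epithelium and melanocyte markers were called lower (2 without 4xIOP replicate 1 and 3 without 4xIOP replicate 2). The part of these cells in the Edn2 difference was not tested.

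Of 6 genes of precursor processing and peptide clearance tested, Furin, a convertase that makes the first cut, was called with age, beside 11.6% of all genes higher, with a rise of 1.13 (SE 0.278, limma adjusted p = 0.0149) that was no longer called when 3mo control replicate 2 or either 18mo control library was left out, and 0 were called in any IOP comparison. The erythroid enzyme gene Kel was at 0 in every library. Mmp2, a matrix metalloproteinase, was among the genes with the smallest p-values after IOP, with log2 differences of 0.75 (SE 0.273), 0.64 (SE 0.273) and 0.62 (SE 0.246) at 3 months, 18 months and after 4 elevations, and did not pass the test.

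Of 31 receptor signalling genes tested, 8 were called higher and 2 lower with age, beside 11.6% of all genes in each direction, and 5 and 1 without 3mo control replicate 2. Rgs4, a regulator that shortens G protein signals, fell by 2.95 (SE 0.265, limma adjusted p = 0.00265), from 12.7 and 23.1 FPKM in 3mo controls to 1.59 and 2.00 FPKM in 18mo controls. Of 10 retinal ganglion cell markers tested, 6 were called lower with age, and 2 to 4 when any 1 library was left out. Their summed level was 365 and 671 FPKM in 3mo controls and 62.9 and 118 FPKM in 18mo controls, and their part in the Rgs4 difference was not tested. Rgs5, a regulator known from pericytes and also on the mural marker list, rose by 2.17 (SE 0.235, limma adjusted p = 0.0033), and Gnai2, an inhibitory G protein subunit, by 1.37 (SE 0.175, limma adjusted p = 0.00484). Endothelial, mural, Muller glia and microglia markers were also called higher with age, and their part in these rises was not tested. After a single elevation 0 of 31 were called at either age (1 at 18 months without IOP replicate 1), and after 4 elevations 1 of 32 was called, Prkcd, a protein kinase C, with a log2 difference of 1.11 (SE 0.22, limma adjusted p = 0.00551). This count was below the share of 5.45% called higher over all genes, and it was 0 without 4xIOP control replicate 1.

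Of 19 transcription factors known to act on endothelin genes, 11 were called higher with age, beside 11.6% of all genes, and 8 to 13 when a library was left out. Endothelial markers were called higher with age in 10 of 12 cases, and the transcript length ratio was 3.26 and 8.14 in the 3mo controls against 1.78 and 1.75 in the 18mo controls. The part of either in the differences of these factors was not tested. Fos and Jun, subunits of AP-1, rose by 5.45 (SE 0.507, limma adjusted p = 0.00265) and 3.81 (SE 0.343, limma adjusted p = 0.00265), and Klf2, a factor known from endothelium under flow, by 3.82 (SE 0.304, limma adjusted p = 0.00265). After a single elevation 0 were called at either age, and 3 of 19 at 18 months without IOP replicate 1. After 4 elevations 1 of 16 was called, Junb, another AP-1 subunit, with a log2 difference of 1.67 (SE 0.229, limma adjusted p = 0.000323), a count near the share of 5.45% over all genes.

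**Figure D5:**
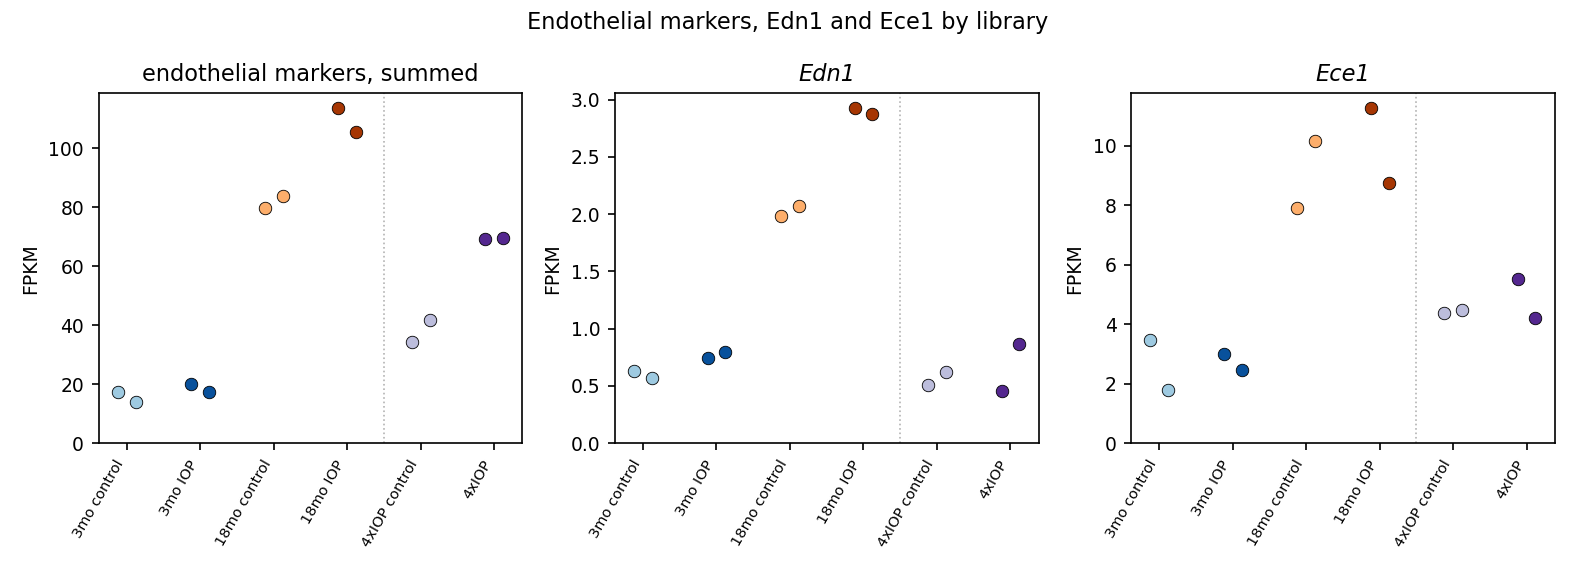
Summed FPKM of 12 endothelial markers and the FPKM of Edn1 and Ece1 by library, on linear axes from 0. All 3 are higher in the 4 libraries of 18 months than in the 4 of 3 months in the single-elevation table.

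Endothelial markers moved with age together with Edn1 and Ece1. Of 12 markers, 10 were called higher with age, and their summed level was 17.5 and 13.8 FPKM in the 3mo controls against 79.8 and 83.8 FPKM in the 18mo controls. After IOP it was 20.2 and 17.2 FPKM at 3 months and 114 and 105 FPKM at 18 months, with 0 of 12 called at either age. Markers of other cell types were also called higher with age, with 4 of 8 mural markers called higher beside the Muller glia and microglia markers above. The summed mural level was 451 and 511 FPKM in 3mo controls and 390 and 373 FPKM in 18mo controls. Such a sum mostly follows its genes of highest level, so it does not speak for the called markers. In controls of the repeated series, Vtn alone averaged 316 FPKM, where the mural sum was 334 and 328 FPKM. In the repeated series the summed endothelial level was 34.3 and 41.7 FPKM in controls and 69.2 and 69.4 FPKM after 4 elevations, where Edn1 and Ece1 overlapped between the groups. There 2 of 10 endothelial markers tested were called higher (Vwf and Kdr), and 1 when any 1 library was left out. The part of endothelial, mural, glial and leukocyte RNA in the age differences of Edn1 and Ece1 was not tested, and library make-up as measured by transcript length moved with age as well.

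The genes whose levels followed each member most closely over the 8 single-elevation libraries were also listed, by Pearson's r of log2(FPKM + 0.5) as a description. The libraries share the age and IOP differences, so high values are common. Edn2 was most like Lad1 (r = 0.992), Flot2 (0.991) and Anxa6 (0.991), and over the 4 libraries of the repeated series these were 0.999, 0.976 and 0.851. Edn1 was most like Syt15, Pdgfrb and Erbb2, at 0.996 to 0.997, but its r with these genes in the repeated series was between -0.457 and 0.099. Edn3 was most like Smco4, Hpse and C2, at 0.982 to 0.986, with -0.409 to 0.331 in the repeated series. Ednrb was most like Ccnd2, Rab27a and Leprotl1, at 0.964 to 0.977, with 0.60 to 0.708 in the repeated series. Ece1 was most like Appl2, Atp9b and Stim2, at 0.997 to 0.999, but at -0.698 to -0.525 in the repeated series. Ece2 was most like the gene that overlaps it (0.999, and 0.995 in the repeated series), followed by Disp3 and Plxna1, at 0.987 and 0.984, with -0.813 and -0.696 in the repeated series.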

How the data were processed

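Retinal RNA was extracted with TRIzol, and strand-specific poly(A) TruSeq libraries were made. Per the study's methods, reads were aligned to mm10 with STAR and exon reads were counted by strand on genes with HOMER, with 1 transcript kept per gene. The STAR version in the submitters' processing notes was 2.7.8a. The authors deposited FPKM values (fragments per kilobase of exon, scaled to each library's depth), and the submitters' processing notes also name DESeq 1.24.0 and DESeq2. The values were whole multiples of what 1 read is worth, for 100% of those checked within 0.1 read, so reads were recovered. These reads serve for depth and for 1 alternative only. Detection limits cover counting error only.

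Groups were compared with limma 3.58.1 in R 4.3.3 on log2(FPKM + 0.5), with trended empirical Bayes, for genes with a mean FPKM of at least 0.5. This scale understates changes of low genes. The 4 single-elevation groups shared one fit (4 residual degrees of freedom), and the repeated series had its own (2). The fit was tested on simulated data. The members and lists were chosen with earlier results of these data known. All members were named in every library. From each list, up to 3 called genes with the smallest p, or else 2, were eligible to be named per comparison, and not all of these are printed. Beyond this rule, Lif, Tyrp1, Rpe65, Kel, and the markers beside results were named after their values were seen. RefSeq promoters were matched for all 7 members.

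Other offsets, filters, scalings, fits and the omission of each library were tried, with effects given in the closing section.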

Additional observations from a re-analysis of the deposited data

Results flagged for a closer look

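The Edn3 differences after IOP had opposite signs at the 2 ages. Both 3mo IOP libraries lay above both controls and both 18mo IOP libraries lay below both controls, with log2 differences of 1.98 (SE 0.432) and -0.29 (SE 0.432), the latter smaller than its SE. The 18mo difference minus the 3mo difference was -2.27. It is given with no test, because the gene was chosen with these comparisons known and passed the filter on low values only through the 3mo IOP libraries. It was between -3.01 and -1.53 when each library was left out in turn, -3.46 with an offset of 0.1 before the logarithm, and -4.28 (SE 1.28) by voom on the recovered reads. The pigment cell gene Mlana and the smooth muscle genes Acta2 and Tagln were high in the same 3mo IOP libraries. Of the markers tested, 1 of 11 for pigment cells and 2 of 8 for mural cells were called there. The part of these cells in this difference was not tested.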

How the results depend on the processing

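With 2 libraries a group, calls near the threshold depended on the setting. With age 3 endothelin genes were called, and 2 with an offset of 1, where Edn1 was at 0.919, and with a mean FPKM of at least 2, where Edn1 was not tested. The other alternatives gave 3. The 4xIOP call of 1 (Edn2) had the same count under every alternative run, including each library left out. The 3mo IOP call of Edn2 was lost (0 called) with no filter on low values and with voom on recovered reads, and the count was 0 to 1 with each library left out. It was lost without 3mo control replicate 1, 3mo IOP replicate 1 or 3mo IOP replicate 2. The 18mo IOP call was lost (0 called) with an offset of 0.1, no filter, a mean FPKM of at least 2, median-of-ratios size factors, quantile normalisation, the replicate block, only the 2 groups compared, and voom. It was also lost without either 18mo control library (0 to 1 called over all 4). For the pathway lists, 2 genes were called after IOP at 3 months. This was 1 with an offset of 1 or the replicate block, 0 with no filter, median-of-ratios, quantile normalisation or voom, 4 with only the 2 groups compared, and 0 to 2 with a library left out. At 18 months 1 was called, and 0 under the settings that lost Edn2 other than the mean FPKM of at least 2, with 0 to 9 when a library was left out (9 without 18mo IOP replicate 1). With age 26 were called, and 17 to 31 with a library left out (17 without 3mo control replicate 2 or 18mo control replicate 2).

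Directions of small differences were not stable. Quantile normalisation gave -0.0819 for Edn3 with age, -0.0551, -0.101 and -0.136 for Edn1, Ece1 and Ece2 after IOP at 3 months, and -0.334, -0.0333 and -0.0169 for Edn1, Ednrb and Ece1 after 4 elevations. Removal of the transcript length trend gave -0.147 for Edn3 with age, -0.0337, -0.0213 and -0.133 for Edn1, Ece1 and Ece2 at 3 months, and -0.0847 and -0.0050 for Edn1 and Ece1 after 4 elevations. Median-of-ratios gave -0.0785 and -0.114 for Ece1 and Ece2 at 3 months. With a library left out, Ednrb ran from -0.162 to 0.0822 and Ece2 from -0.160 to 0.837 with age. At 3 months Ece1 ran from -0.314 to 0.481 and Ece2 from -0.251 to 0.358. At 18 months they ran from -0.0367 to 0.313 and from -0.790 to 0.357, and in the interaction from -0.342 to 0.452 and from -0.843 to 0.303. After 4 elevations Edn1 ran from -0.148 to 0.363 and Ece1 from -0.0677 to 0.288. The cause was not tested.

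The deviations of same-numbered libraries correlated at -0.28, -0.53 and -0.29 in the 3 IOP comparisons, so the numbers were not taken as pairs. A block with crossed numbers, chosen after seeing the data, called 2, 1 and 1 endothelin genes and 6, 10 and 8 pathway genes after IOP at 3 months, at 18 months and after 4 elevations. The replicate block changed no other endothelin count. Edn3 and Ednra were under the filter on low values in the repeated series and were not tested there.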
